A study of Zea mays with 4 samples.

Results

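In shoots of 2 maize lines, 48 probe sets of an Affymetrix maize array gave a bright signal in Cm489 and a signal near background in F98908. A probe set is a group of short probes that reads out 1 target sequence, and the array holds 17621 of them besides the AFFX controls of its maker. The 48 were chosen on the measured values themselves, as probe sets with a mean log2 value over 8 on the 2 Cm489 arrays and under 4 on the 2 F98908 arrays. That rule gave 50 probe sets, and those of the O-methyltransferase gene zrp4 and the glutathione transferase gene gst13 were left out. The difference between the lines is therefore how the 48 were found, and their levels are given as a description with no test.

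Total RNA came from the aerial material of Cm489 and F98908 plants, 21 days old and with 7 leaves, grown on compost at 50% humidity in days with 16 h of light and nights of 8 h. No treatment or transgene is given for either line, and each line has 2 arrays. The lines were extracted separately and no batch is stated, so line cannot be told apart from extract or batch. Cm489 arrays 1 and 2 have extract labels of their own, with 177 and 170 ug of RNA, whereas both F98908 arrays carry 1 and the same extract label, with 213 ug. Separate plants or cultures behind the arrays of a line are not stated, so the spread behind the p-values is that between arrays and may be technical only. In RNA from whole shoots, fewer cells of a type and less RNA per cell cannot be told apart.

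Maize lines are known to differ from each other in gene content, in the copies of gene families and in the sequence of the alleles they share. An expression array has probes for a fixed set of target sequences, and it reports brightness where labelled RNA pairs with them. A transcript that is scarce, absent or different in sequence under the probes gives a low value, and these cannot be told apart in the deposited values. The name of a probe set carries part of its origin: the number after Zm is that of a cluster of similar expressed sequences, the next number a sequence within that cluster, and the letter A or S the orientation of the tiled sequence. Names ending in _a_at, _s_at or _x_at mark probes shared with other transcripts or open to cross-hybridisation, and a plain _at marks probes picked to be unique.

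None of the 48 has a gene symbol in the platform's annotation, so they are described by probe set name. Their function is not given here. The tissue was checked on named genes: Cab-m7, a chlorophyll-binding protein gene, lay between 14.16 and 14.29 (log2, 4 arrays) and the Rubisco small subunit gene rbcS between 11.53 and 12.28. The kernel globulin gene Glb1 (LOC732801) lay between 2.46 and 2.49, and the zein gene zp27 reached 5.02 on its brightest probe set. The probe sets of the kernel gene FL2 lay between 2.23 and 2.35. The symbol GLB1 also matched LOC541815, listed also as Hb, at 7.70 and 8.94 in Cm489 and at 7.51 and 7.30 in F98908. That match was by symbol, so its values are no check of the tissue. Against the label, the probe set for me3, the NADP-malic enzyme of the bundle sheath, lay between 2.99 and 3.0. That for pep1, the phosphoenolpyruvate carboxylase of the mesophyll, was at 5.44 on Cm489 array 1 and between 1.86 and 1.91 on the other arrays. The symbol pdk1 on the list of leaf genes matched both Ppdk1 (LOC542759) and PDK1 (LOC541677, listed also as pdlk1). A match by symbol does not make PDK1 a leaf gene, so its values are no check of the tissue. The probe sets of PDK1 lay between 7.83 and 8.68 on the 4 arrays. The brightest of Ppdk1 was at 9.38 and 8.88 in Cm489 and at 9.76 and 9.69 in F98908. Its dimmest was at 1.70 on every array, and its others lay between 3.04 and 7.24. Probe sets of 1 leaf gene thus ranged from bright to near background. The single root marker, zrp4, was at 10.99 and 10.78 in Cm489 and at 3.14 and 2.48 in F98908. It met the same limits as the 48 and was left out by name, so its likeness to them was fixed by the rule. The part of root tissue in the values of the 48 was not tested.

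All 48 probe sets had every Cm489 array above every F98908 array, with at least 4.34 log2 units between the nearest arrays. Over the 11263 probe sets tested (log2 over 4 on at least 2 arrays), the Cm489 arrays lay above the F98908 arrays without overlap in 35.4%. The 48 ran from 7.71 to 12.89 on Cm489 array 1 with a median of 9.23, and from 7.99 to 13.44 with a median of 9.36 on array 2. In F98908 they ran from 1.51 to 3.97 with a median of 2.53 on array 1, and from 1.51 to 4.22 with a median of 2.45 on array 2. Only Zm.11238.1.A1_at had an F98908 array above log2 4, and 7 of the 48 had a Cm489 array at or under log2 8. All 48 passed the filter on low values, which the Cm489 arrays alone were enough to meet, and all were called lower in F98908 by limma at an adjusted p under 0.05, against 8.02% of the tested probe sets. The rule used this contrast, so nothing is read from that count.

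Because a dim value has no reliable size, each difference is also given as a fold of at least the Cm489 mean over log2 4. Over the 48 this bound ran from 16.3-fold to 525-fold, with a median of 39.8-fold. The measured differences, Cm489 minus F98908, ran from 4.64 to 10.56 log2 units with a median of 6.94. Probes of different sets differ in how well they bind, so the order of the probe sets by brightness is not an order of transcript abundance. By Cm489 mean, 17 lay between log2 8 and 9, 10 between 9 and 10, 8 between 10 and 11, 9 between 11 and 12, and 4 above 12.

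The brightest in Cm489 was Zm.13478.1.S1_at, with 12.64 and 13.44 on the Cm489 arrays and 3.58 and 3.56 on the F98908 arrays. Its mean was 13.04 ± 0.57 in Cm489 (SD, n = 2 arrays) and 3.57 ± 0.01 in F98908, at least 525-fold higher in Cm489. Zm.1284.1.S1_at had 12.89 and 13.15 in Cm489 and 2.47 and 2.44 in F98908. It showed the widest measured difference of the 48, 10.56 ± 0.13 log2 units (SE), and its bound was at least 519-fold. Zm.12073.1.S1_at followed in width with 10.47 ± 0.12, from 11.90 and 12.11 in Cm489 to 1.53 and 1.53 in F98908. In each of these 3 the arrays of a line lay within 0.80 log2 units of each other.

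Further bright probe sets had the same form. Zm.13321.1.A1_at had 11.90 and 11.76 in Cm489 against 2.45 and 2.43 in F98908, at least 227-fold. The values of Zm.4995.1.A1_at were 11.45 and 12.05 against 2.43 and 2.45, at least 215-fold. Less dim in F98908 was Zm.3714.2.A1_at, with 11.75 and 12.01 in Cm489 and 3.97 and 3.98 in F98908. It is the probe set nearest to log2 4 in F98908, but its Cm489 mean still gave a bound of at least 236-fold. Ranked by this bound, the 15 highest of the 48 ended with Zm.899.1.A1_at at 115-fold, with 10.87 and 10.81 against 2.07 and 2.07.

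In F98908, 20 of the 48 lay at or below the highest of 23 control probe sets without a target in the plant on both arrays, where those controls reached 2.47 and 2.45. The other 28 were above it on at least 1 F98908 array. By mean, 6 lay between log2 1 and 2, 29 between 2 and 3, and 13 between 3 and 4. The lowest in F98908 was Zm.2.1.A1_at, at 1.51 on both F98908 arrays and at 8.05 and 8.28 in Cm489. Zm.1837.1.S1_a_at had 1.75 on both F98908 arrays against 10.96 and 11.03. On array 1 and 2 of F98908, Zm.16904.2.A1_a_at was at 1.89 and 1.89 and Zm.13306.1.A1_at at 1.93 and 1.93. Their Cm489 values were 10.28 and 10.56, and 10.13 and 10.34. Values that low are those of the dim end of the scale. In 30 of the 48 the F98908 arrays differed by less than 0.1 log2 units. The same held for 4557 of the 11263 tested probe sets and for 3119 of the 6793 with a Cm489 mean over log2 8.

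Among the 8 dimmest in F98908, the one with the widest gap between its F98908 arrays was Zm.2013.1.S1_a_at, at 1.96 and 1.70, with 8.92 and 8.32 in Cm489. ZmAffx.433.1.A1_at, from a separate numbering of clusters, was at 2.08 on both F98908 arrays and at 8.94 and 9.18 in Cm489. Between the F98908 arrays, 6 of the 48 differed by over 0.5 log2 units, the widest being Zm.11238.1.A1_at with 3.30 and 4.22. So did 1075 of the 11263 tested probe sets and 327 of the 6793 with a Cm489 mean over log2 8.

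The thresholds fell within a continuous range of values. Just inside the Cm489 limit lay Zm.10274.1.S1_at with a mean of 8.03, Zm.17339.2.A1_a_at with 8.05 and Zm.17339.1.A1_a_at with 8.06, and just outside lay Zm.12592.1.S1_at with 7.95, a probe set of the oxophytodienoate reductase gene opr5 with 7.95 and Zm.16524.2.A1_at with 7.94. At the F98908 limit, Zm.3714.2.A1_at (3.97), Zm.11238.1.A1_at (3.76) and Zm.12101.2.S1_at (3.70) were inside, and Zm.14137.2.S1_at (4.07), Zm.13693.1.S1_at (4.13) and ZmAffx.189.1.A1_at (4.14) were outside.

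The Cm489 arrays differed from each other more among the 48 than among all probe sets bright in Cm489, a set that includes the 48. The median absolute difference between Cm489 arrays 1 and 2 was 0.276 log2 units over the 48, beside 0.195 over the 6793 probe sets with a Cm489 mean over log2 8. In 35 of the 48 (72.9%) array 2 was the higher, with a median of array 1 minus array 2 of -0.24, whereas 51.0% of the 6793 were higher on array 2. The arrays differed by over 0.5 log2 units in 18 of the 48 (37.5%) and in 13.7% of the 6793, and by over 1 in 2 of the 48 (4.17%) and in 2.40% of the 6793. These shares are descriptions of 1 array against 1. The bacterial spike-in controls dap, lys, phe and thr moved the same way. All 36 of their probe sets were higher on Cm489 array 2, by 0.13 to 0.93 log2 units with a median of 0.45. In F98908 all 36 were higher on array 1, with a median of array 2 minus array 1 of -0.30. The part of the spike-in controls in the difference between the Cm489 arrays was not tested.

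The widest gap between the Cm489 arrays was that of Zm.13002.1.S1_at, at 11.08 on array 1 and 12.73 on array 2, a gap of 1.65. Its F98908 values were 2.52 and 2.36, so the difference between the lines was 9.47 ± 0.61 (SE). Zm.16805.8.S1_at had 9.90 and 11.16 in Cm489 and 3.69 and 3.33 in F98908. The Cm489 values of Zm.12101.2.S1_at were 8.74 and 9.67, against 3.69 and 3.70. All 3 were higher on Cm489 array 2, and so was Zm.1741.1.S1_at with 7.89 and 8.73 (2.29 and 2.03 in F98908). The opposite order held for Zm.1334.1.S1_at, at 9.92 on array 1 and 9.0 on array 2, and at 2.23 and 2.21 in F98908. None of these gaps brought a Cm489 array near the F98908 arrays.

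Each line also offers a second array that a choice on the first did not use. By the same limits applied to array 1 of each line alone, 46 probe sets were chosen, of which 40 also had Cm489 over 8 and F98908 under 4 on the arrays numbered 2. Of the 61 chosen on the arrays numbered 2, 40 also passed on the arrays numbered 1. Of the 6 chosen on array 1 that did not pass on array 2, 3 missed a limit there by at most 1 log2 unit and 3 by more. The widest miss was that of Zm.418.1.A1_at, which went from 9.12 on Cm489 array 1 to 3.43 on array 2, and Zm.5654.1.A1_at went from 9.80 to 3.70. Of the 21 chosen on array 2 that did not pass on array 1, 15 missed by at most 1 log2 unit and 6 by more, up to Zm.1659.1.A1_at, which went from 8.76 on Cm489 array 2 to 4.92 on array 1. The 40 are the same probe sets both times, those that passed on every array, so the counts are not separate results. Such probe sets also meet the limits on the means, so all of the 40 had to be among the 48. The F98908 arrays share an extract label, so this repeat is of the Cm489 RNA at most.

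Of the 48, 35 are of the plain _at type, 9 of the _a_at type, 3 of the _x_at type and 1 of the _s_at type. The types other than plain _at make up 27.1% of the 48, 17.9% of the 6793 probe sets bright in Cm489 and 12.6% of all 17621. The orientation letter was A in 27 and S in 21, and A made up 56.2% of the 48 and 60.8% of all.

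The 48 come from 44 sequence clusters, 40 of them with 1 of the probe sets and 4 with 2. In 26 clusters the probe set is the only one on the array, so nothing else on it reads the same cluster. The other 18 clusters hold 78 further probe sets, called relatives here. These were not chosen by their values, but they come from the same arrays and the same contrast, and those that share a sequence with one of the 48 can share probes with it. Of the 78, 32 were under log2 4 in both lines and were not tested, and 26 were over log2 8 in both lines. Limma called 13 of the 46 tested relatives lower in F98908 and none higher, against 8.02% and 7.27% of all tested probe sets, and 12 of the 13 differed by over 2 log2 units. Of the 13, 5 passed the filter on low values through the Cm489 arrays alone, as no other tested relative did, so they had to differ and the count is no support for a difference. The median difference, F98908 minus Cm489, was -0.18 over the tested relatives and -0.03 over all tested probe sets.

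The 13 lower relatives belong to 7 clusters, and in 7 other clusters relatives were tested and none was called. Without F98908 array 1 the count of lower relatives was 7, and without F98908 array 2 it was 6. It was also 7 after averaging the F98908 arrays, which share an extract label, to 1 sample. In each of these fits the spread came from Cm489 alone. Of the 13 calls, 6 held under every alternative setting that tested them, namely those in Zm.17339 and Zm.8578 and the 4 in Zm.5851. Among these, Zm.17339.2.A1_x_at, Zm.8578.3.S1_at, Zm.5851.2.A1_at and Zm.5851.7.A1_a_at passed the filter on low values through the Cm489 arrays alone. They had to differ, so that their calls held is no sign of stability.

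In 4 clusters, Zm.17339, Zm.7685, Zm.818 and Zm.8578, every tested relative was called lower in F98908 by over 2 log2 units. Zm.17339.2.A1_x_at, Zm.8578.3.S1_at and Zm.818.2.A1_a_at passed the filter on low values through the Cm489 arrays alone. They had to differ, so their calls are no support for a difference. Cluster Zm.17339 holds 3 probe sets, and all were lower in F98908 by over 2 log2 units. Zm.17339.1.A1_a_at had 8.04 and 8.08 in Cm489 and 2.12 and 2.24 in F98908, and Zm.17339.2.A1_a_at had 8.11 and 7.99 against 2.18 and 2.24. The relative Zm.17339.2.A1_x_at was at 7.07 and 7.16 against 3.0 and 3.07, at least 8.68-fold higher in Cm489 (adjusted p = 0.00045).

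In cluster Zm.7685, Zm.7685.1.A1_a_at had 9.78 and 10.57 in Cm489 and 2.73 and 1.91 in F98908. Its relatives for the same sequence were lower too but not dim in F98908: Zm.7685.1.A1_at had 11.71 and 12.30 against 8.10 and 6.87 (adjusted p = 0.0159), and Zm.7685.1.A1_x_at had 11.64 and 12.65 against 7.92 and 6.65 (adjusted p = 0.0194). Both calls were lost with no filter on low values, without Cm489 array 1, without Cm489 array 2 and without F98908 array 2. That of Zm.7685.1.A1_at was lost under 4 of 14 alternative settings and that of Zm.7685.1.A1_x_at under 7 of 13. Within 1 target sequence the F98908 signal was near background on one probe set and well above it on the others.

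Zm.818.1.A1_at, at 7.89 and 8.44 in Cm489 and 3.56 and 3.49 in F98908, had 2 lower relatives, both for another sequence of the cluster. Zm.818.2.A1_a_at was at 7.28 and 8.32 against 2.69 and 2.66 (adjusted p = 0.0065), and Zm.818.2.S1_at at 9.03 and 8.47 against 5.97 and 5.65 (adjusted p = 0.00889). The pair has opposite orientation letters, and both were lower. Both calls were lost without F98908 array 1, without F98908 array 2 and with the F98908 arrays as 1 sample. In cluster Zm.8578, Zm.8578.3.S1_s_at had 7.71 and 8.54 in Cm489 and 3.12 and 2.50 in F98908, and its relative Zm.8578.3.S1_at had 6.99 and 6.88 against 2.28 and 2.43 (adjusted p = 0.00045).

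Within clusters of larger families, relatives ranged from strongly lower to equal. Cluster Zm.5851 has 25 probe sets, of which Zm.5851.4.A1_at (9.34 and 9.26 in Cm489, 2.54 and 2.89 in F98908) and Zm.5851.8.S1_a_at (7.80 and 8.42, 3.42 and 3.40) are among the 48. Of its 23 relatives 12 were under log2 4 in both lines, 4 were called lower and 7 were tested and not called. Zm.5851.2.A1_at had 7.81 and 7.88 in Cm489 and 2.56 and 2.65 in F98908 (adjusted p = 0.000302), and missed the limit of log2 8 narrowly. Zm.5851.6.S1_x_at had 9.57 and 9.87 against 4.90 and 4.65 (adjusted p = 0.00086). The remaining 2 lower relatives were Zm.5851.11.A1_a_at, at 10.97 and 11.05 against 7.81 and 7.85, and Zm.5851.7.A1_a_at, at 5.36 and 5.04 against 2.26 and 2.26.

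Other sequences of that cluster were bright in both lines. Zm.5851.1.A1_at had 11.92 and 11.91 in Cm489 and 11.60 and 11.67 in F98908 (difference -0.28, adjusted p = 0.153). Zm.5851.3.A1_at was at 8.35 and 8.42 against 8.81 and 8.78 (difference 0.41, adjusted p = 0.0743). A dim relative, Zm.5851.9.S1_at, had the opposite order, with 1.97 and 1.98 in Cm489 and 3.61 and 3.58 in F98908, all under log2 4 and not tested.

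Cluster Zm.4164 showed a graded pattern over 9 probe sets. Zm.4164.3.A1_at had 11.10 and 11.63 in Cm489 and 2.84 and 2.84 in F98908, at least 165-fold higher in Cm489. Zm.4164.3.A1_x_at, for the same sequence, had 8.54 and 10.17 against 4.58 and 5.34 (adjusted p = 0.0302), and Zm.4164.2.A1_at had 7.42 and 8.14 against 4.29 and 4.29 (adjusted p = 0.00744). Both calls were lost without F98908 array 1, without F98908 array 2 and with the F98908 arrays as 1 sample. That of Zm.4164.3.A1_x_at was lost under 6 of 13 alternative settings, among them without Cm489 array 2. The 4 other tested relatives had differences between -1.80 and -0.64 and did not pass. All 6 tested relatives of the cluster had a negative difference, and in the 2 untested ones every array was under log2 4.

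In 7 clusters the tested relatives gave no call, and several were bright in both lines. Cluster Zm.16049 holds 2 of the 48, both for its first sequence: Zm.16049.1.S1_at had 11.23 and 11.21 in Cm489 and 2.46 and 2.45 in F98908, and Zm.16049.1.S1_x_at had 12.14 and 11.94 against 3.87 and 3.32. For the second sequence, Zm.16049.2.A1_at was at 13.27 and 13.24 in Cm489 and 13.31 and 13.19 in F98908 (difference -0.01 ± 0.11 SE, adjusted p = 0.980). The other probe sets of that sequence had differences of 0.07 and -0.02. A wide difference on the first sequence thus stood beside differences of at most 0.07 on the second.

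In cluster Zm.16805 the member was Zm.16805.8.S1_at, and 10 of its 11 relatives were over log2 8 in both lines. None passed the test, but Zm.16805.3.S1_at (7.62 and 9.21 in Cm489, 10.68 and 9.95 in F98908) and Zm.16805.3.S1_x_at (8.46 and 9.78, 10.96 and 10.36) had positive differences of 1.90 and 1.54 (adjusted p = 0.145 and 0.152). Both had their lower value in Cm489 on array 1, as did Zm.16805.8.S1_at. Cluster Zm.14951 has Zm.14951.1.S1_a_at (11.19 and 10.87 in Cm489, 2.37 and 2.04 in F98908) and Zm.14951.2.S1_x_at (11.44 and 11.14, 2.57 and 2.51). Its relative Zm.14951.4.S1_at was bright in both lines, with 10.48 and 10.23 against 10.60 and 10.75 (adjusted p = 0.218). On Zm.14951.1.S1_x_at the Cm489 arrays disagreed, at 8.39 and 5.08, and the F98908 arrays were at 4.17 and 4.59.

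The remaining clusters with a bright relative had 1 or 2 tested probe sets besides the member. Zm.3714.1.A1_at was at 11.80 and 11.82 in Cm489 and 11.97 and 11.93 in F98908 (difference 0.14, adjusted p = 0.395), whereas Zm.3714.2.A1_at differed by 7.91 log2 units in the other direction. For the same sequence as Zm.17285.1.S1_x_at (10.04 and 10.02 against 3.09 and 3.02), Zm.17285.1.S1_s_at had 8.52 and 8.26 against 8.23 and 8.52 (difference -0.02). Zm.1837.1.S1_at, for the same sequence as Zm.1837.1.S1_a_at, had 10.74 and 10.76 against 10.08 and 10.24 (difference -0.59, adjusted p = 0.0493). That call was lost under 11 of 14 alternative settings, among them each that left out 1 array (adjusted p between 0.105 and 0.265). Zm.5290.2.S1_at had 8.43 and 8.65 against 3.07 and 2.64, while its relative Zm.5290.1.S1_at had 10.12 and 10.32 against 10.42 and 10.52 (adjusted p = 0.261).

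The relatives with a gene name belong to cluster Zm.737. Zm.737.2.A1_at, unnamed itself, had 8.98 and 9.20 in Cm489 and 3.41 and 3.68 in F98908. Its 2 relatives stand for LOC542451, listed also as ccp2 and see1, a cysteine proteinase gene known from senescing maize leaves. Zm.737.1.A1_a_at was at 12.77 and 13.08 in Cm489 and 12.62 and 12.66 in F98908 (difference -0.29 ± 0.15 SE, adjusted p = 0.276), and Zm.737.1.A1_at at 11.77 and 12.35 against 11.96 and 11.89 (difference -0.14 ± 0.23 SE, adjusted p = 0.726). The named proteinase gene was thus bright on all 4 arrays, and its difference between the lines did not pass.

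Counting by sequence, 20 relatives share the sequence number of a probe set of the 48, of which 10 were tested, 6 were called lower and 3 were over log2 8 in both lines. The other 58 stand for another sequence of the cluster, of which 36 were tested, 7 were called lower and 23 were over log2 8 in both lines. For 6 of the 48 at least 1 relative reads the same sequence with the opposite orientation letter, and all 7 such relatives lay between 1.89 and 2.45 on every array of both lines.

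The reverse pattern, a mean over log2 8 in F98908 and under 4 in Cm489, held for 68 probe sets, and none of them belongs to a cluster of the 48. Those clusters hold only the 48 and their 78 relatives out of 17621 probe sets, so nothing is read from that absence.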

How the data were processed

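The deposited log2 values, 1 per probe set and array for 4 arrays, were made by the authors with GCRMA, per the submitters' processing notes; its version is not given in the sources used here. That method estimates background from probe sequence, gives all arrays the same distribution and condenses a set's probes to 1 value, so a difference in total RNA output is removed and dim values have no reliable order. Scanner files, detection calls and slide or scan batches were not used here, and with so few arrays their number limits precision.

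The table has 17734 probe sets, and 113 AFFX controls were left out. The comparison, F98908 minus Cm489, used limma 3.58.1 (lmFit, then eBayes; two-sided; R 4.3.3) without a replicate block, over the 11263 probe sets above log2 4 on at least 2 arrays, with Benjamini-Hochberg adjustment and a threshold of 0.05. The variance prior added 1.79 degrees of freedom to the 2 residual ones. The fit was tested on simulated data. Probe sets were named through the platform's annotation and RefSeq's table for the Zm-B73-REFERENCE-NAM-5.0 genome, and 1452 have 1 gene symbol. No genome build is named for the values, so no positions are given.

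Members, limits and lists were chosen with earlier results of these data known. Described with values are the 8 brightest in Cm489, the 8 dimmest in F98908, the 5 with the widest gap between the Cm489 arrays, those sharing a cluster, the 3 nearest to each limit on either side, and relatives that were called or belong to a named gene. Further probe sets were named after their values were seen: the relatives not called and the probe sets that passed on the arrays of 1 number alone. The rule also asked for genes related by symbol to named members, of which there are none. Alternatives changed the filter, the floor, the normalization, the variance prior, the probe set types, the limits, the arrays kept and the replicate block.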

Additional observations from a re-analysis of the deposited data

How the results depend on the processing

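The 48 probe sets were chosen on this contrast, so their direction and calls under other settings are a description and no sign of stability. Zm.13002.1.S1_at, Zm.12101.2.S1_at, Zm.16805.8.S1_at and Zm.8578.3.S1_s_at were not called with the F98908 arrays as 1 sample or without F98908 array 2, and the first 3 also without F98908 array 1. With 1 array left out, 44 to 48 of the 48, 6 to 10 relatives and 433 to 1079 of all probe sets were called, against 48, 13 and 1722. With the F98908 arrays as 1 sample, 7 relatives and 418 of all probe sets were called. A filter on a mean over log2 6 left 28 of the 48 to test, all called, with 7 relatives and 1130 in all. With no filter on low values, 9 relatives were called lower and 2 higher. Without the cross-hybridising types, 5 of 20 tested relatives were called. The rule gave 46 to 56 probe sets with 1 array left out, 21 with limits of 9 and 3, and 115 with limits of 7 and 5. Apart from the limits and the number of probe sets tested or arrays kept, the cause was not tested. The rule "named member genes" had no gene to apply to.

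With the replicate number as a block, 780 probe sets were called, among them all 48 and 12 relatives. Same-numbered arrays deviated in opposite directions (correlation -0.36 over 11263 probe sets), and the crossed pairing, chosen after seeing the data, gave 1862 calls, among them the 48 and 11 relatives. The labels give a shared number only, with no shared plant or batch.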

Other observations

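A pair of probe sets just outside the limits resembled the brightest of the 48 in Cm489. Zm.2031.4.A1_at had 12.86 and 13.64 in Cm489 and 4.66 and 3.74 in F98908, and Zm.2031.4.A1_x_at had 12.99 and 13.53 against 5.17 and 3.66. Another sequence of that cluster, Zm.2031.2.A1_a_at, was bright in both lines, with 12.26 and 13.17 against 13.02 and 12.54. The pair was noticed after its values were seen and was not tested as a group.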
